A study of Mus musculus with 18 samples.

Results

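The 6 liver libraries of the ischemia and reperfusion group (IR) were divided by how much of their RNA came from the mitochondrial chromosome. The members were chosen by a measured value: the counts of the 37 genes on that chromosome over the counts of all genes, called the mitochondrial share below. IR 4, IR 5 and IR 6 had a share under 15%, and IR 1, IR 2 and IR 3 a share over 15%, which makes 3 libraries against 3 among the 18 of the study. Each library is bulk liver RNA, the mice are wild-type C57BL/6, and the study has 3 groups of 6. Sham mice had anaesthesia and a laparotomy without clamping, IR mice had the portal triad clipped for 1 h (about 70% of the liver) and then 6 h of reperfusion, and IR-Ori mice had the same ischemia and reperfusion with oridonin, a plant diterpenoid whose dose, route and time the sources used here do not give. Nor do they give age or sex. Nothing in the labels states that each library is a separate animal, so a p-value here reflects only variation among these samples, which may be technical.

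Mitochondria carry their own small genome, which encodes subunits of the respiratory chain, 2 ribosomal RNAs and the transfer RNAs needed to translate them. Its transcripts are abundant in hepatocytes. Reperfused liver is known for a rapid stress response, in which heat shock factor drives chaperone genes, AP-1 and ATF factors appear as early response genes, and MAP kinase phosphatases follow as feedback.

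The share was 42.9% in IR 1, 22.1% in IR 2 and 19.5% in IR 3, against 14.5% in IR 4, 9.65% in IR 5 and 6.52% in IR 6. IR 4 lies just inside the line and IR 3 is the nearest to it on the other side, while IR 1 lies far above all others of the group. These values chose the libraries and are not tested. Low shares were not limited to IR: 4 of the 12 other libraries were under 15%, namely sham 1 at 10.3%, sham 3 at 11.2%, sham 4 at 12.4% and IR-Ori 5 at 14.1%. Sham 2, at 42.8%, matched IR 1.

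**Figure D1:**
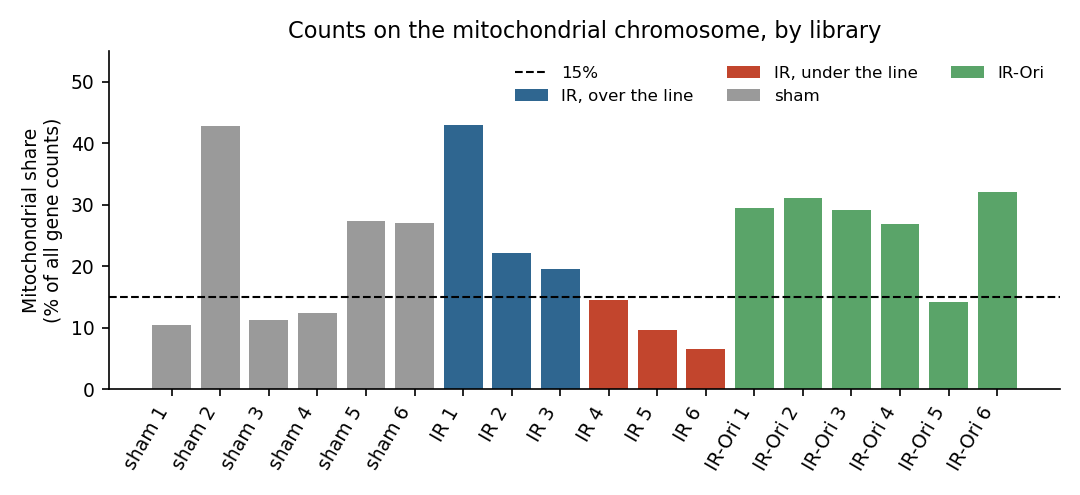
Bars give the percentage of all gene counts that lie on the mitochondrial chromosome in each of the 18 libraries, and the dashed line marks 15%. IR 4 to IR 6 (14.5%, 9.65% and 6.52%) are under the line, as are 3 sham libraries and IR-Ori 5.

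Of the mitochondrial RNAs, mt-Co1, mt-Cytb, mt-Nd2, mt-Nd1 and mt-Nd4 made up 86.2 to 89.5% of the mitochondrial counts in every IR library, so the share is nearly a measure of these 5 messenger RNAs. mt-Co1, a cytochrome oxidase subunit, took 6.72 to 15.2% of all counts in the high-share libraries and 2.61 to 5.13% in the low-share ones. Of 13 protein-coding mitochondrial genes, 10 did not overlap between the sets, and mt-Co2, mt-Co3 and mt-Atp6 did. These genes are part of the share that split the libraries, so such separation is built into the split and is not a result. How reads shared with near-identical nuclear copies of mitochondrial genes were assigned is stated in no source used here. The 2 ribosomal RNAs did not follow the split. They took 1.07%, 0.801% and 0.388% of all counts in the high-share libraries against 1.09%, 0.399% and 0.198% in the low-share ones. IR 4 stood out, with 7.52% of its mitochondrial counts on these RNAs against 1.99 to 4.13% in the other 5 libraries. Of the 22 transfer RNA genes, 19 were at 0 in all 6 libraries.

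Every comparison below used nuclear genes only, scaled among themselves, so that the mitochondrial counts do not enter the level of another gene. Levels are TMM-scaled FPKM, that is, counts scaled by exon length and by the nuclear count of the library after a trimmed-mean correction of library size. Nuclear counts ranged from 9338083 to 14656310 and total counts from 12449529 to 16625908. The mean number of genes with a count was 20829 in the high-share set and 20822 in the low-share set, and the 100 most abundant nuclear genes took 37.6 to 39.1% and 37 to 40.2% of nuclear counts. Over 14639 genes, the root mean square log2 difference between 2 libraries was 0.585 to 0.754 within IR 1 to IR 3, 0.762 to 1.01 within IR 4 to IR 6 and 0.839 to 1.33 between the sets. IR 4 lay 0.839 to 0.963 from the high-share libraries and 0.762 to 1.01 from IR 5 and IR 6, so that on nuclear genes it was about as near to one set as to the other. The low-share libraries were farther from single sham libraries (median 1.18) than the high-share libraries were (median 0.878). The same held against IR-Ori, with medians of 1.20 and 0.778.

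In the fit of the 6 libraries with edgeR's quasi-likelihood test, 1607 of 14255 nuclear genes (11.3%) had an adjusted p under 0.05. Of these, 939 (6.59%) were higher and 668 (4.69%) lower in IR 4 to IR 6. By levels alone, 2846 genes (20.0%) lay higher in all low-share than in all high-share libraries, and 2404 (16.9%) lay lower. Since the libraries were split on a measured value, with earlier results of these data known, the calls describe these 6 libraries and are no test of a treatment, and nothing is read from the counts of a list against these percentages. The number of calls depended on single libraries: without IR 1 or without IR 2 the count was 0 (lowest adjusted p 0.0523 and 0.0591, with 3203 and 3201 genes at an unadjusted p under 0.05), without IR 3 it was 305, without IR 5 it was 691 and without IR 3 and IR 4 together it was 671. With the share as a number in place of the 2 sets, 8 genes passed, all of them lower at a low share.

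Chaperones of the heat shock response lay on the high side. Of 24 tested, 16 passed and were higher in IR 4 to IR 6, beside 6.59% of all genes, and 0 were lower. The median difference was 1.57 on the log2 scale (0.02 over all genes tested). Without IR 1, IR 2 or IR 3 the count of called chaperones was 0, with medians of 1.71, 1.62 and 1.5, and without IR 3 and IR 4 it was 4. Dnajb1, the Hsp40 co-chaperone that delivers clients to Hsp70 (chromosome 8, 84334822 to 84339282, plus strand, GRCm39), was at 24.4, 18.3 and 16.1 in the high-share libraries (IR 1, 2 and 3) and at 121, 141 and 741 in the low-share ones (IR 4, 5 and 6). Sham libraries held 5.94 to 13.1 and IR-Ori libraries 4.26 to 12.6. All 3 low-share libraries lay above all others, IR 6 by far the most, and the 3 high-share libraries also lay above every sham library. The log2 difference within IR was 4.08 ± 0.73 (SE, adjusted p = 0.0166), and 2.71 without IR 6.

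Hsph1, an Hsp110 nucleotide exchange factor for Hsp70, was at 35.5, 33.6 and 20.5 in the high-share libraries and at 172, 101 and 576 in the low-share ones. Hspb1, a small heat shock protein that holds unfolding proteins, was at 223, 80.5 and 134 against 440, 603 and 763, and at 8.60 to 29.5 in sham. Hsp90aa1, the inducible Hsp90, was at 165, 145 and 147 against 662, 474 and 1205. None of these 3 genes overlapped between the sets, and IR 6 held the top value of each. Hspa1b, an inducible Hsp70, was at 94.7, 69.4 and 30 against 326, 131 and 676 (log2 difference 2.53 ± 0.62, SE, adjusted p = 0.0362). Its near-identical neighbour Hspa1a was at 58.0, 47.1 and 13.5 against 160, 23.0 and 158, which overlap, and the division of reads among these copies is uncertain.

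The chaperonin of the mitochondrial matrix was among them: Hspd1 was at 153, 135 and 154 against 533, 596 and 1259 (log2 difference 2.42 ± 0.40, SE, adjusted p = 0.0149), and its partner Hspe1 at 178, 116 and 140 against 461, 338 and 506. Both genes overlap on the chromosome, and no source used here gives the strand setting of the counting. Bag3, Hsp90ab1, Dnaja1, Hspa8, Hspa4l, Ahsa1, Stip1, Chordc1 and Hspb8 also passed, whereas Hsf1, which encodes the factor that activates these genes, had a log2 difference of -0.57 that did not. Zfand2a, a zinc-finger protein induced with the chaperones and not on the list, was at 5.45, 5.96 and 5.37 against 29.2, 79.9 and 106 (log2 difference 3.67 ± 0.46, SE, adjusted p = 0.0108), with 2.22 to 3.94 in sham. Unlike Dnajb1, its difference hardly rested on IR 6 (3.26 without it).

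Heat shock factor binds inverted repeats of GAA. The upstream windows are shown for 4 of these genes, whose RNAs separate the sets and whose windows hold such a repeat. The display is therefore picked on the motif as well: Dnajb1 also separates the sets, holds no such repeat and is not shown. Each window is the 250 bases before the start in the RefSeq promoter table (GRCm38.p6, an older build than that of the counts), 5′ to 3′ on the strand of the gene, with every GAANNTTC or TTCNNGAA in capitals. They lie at chr5:135887669-135887918 (plus strand) for Hspb1, chr17:34959239-34959488 (minus) for Hspa1b, chr5:149636337-149636586 (minus) for Hsph1 and chr5:139484492-139484741 (minus) for Zfand2a. Where a gene has several windows, the one with most matches is shown.
Hspb1: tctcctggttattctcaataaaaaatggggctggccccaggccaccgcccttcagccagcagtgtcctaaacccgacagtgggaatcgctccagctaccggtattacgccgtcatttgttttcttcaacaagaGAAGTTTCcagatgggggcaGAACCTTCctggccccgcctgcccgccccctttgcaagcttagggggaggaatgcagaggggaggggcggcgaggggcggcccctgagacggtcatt
Hspa1b: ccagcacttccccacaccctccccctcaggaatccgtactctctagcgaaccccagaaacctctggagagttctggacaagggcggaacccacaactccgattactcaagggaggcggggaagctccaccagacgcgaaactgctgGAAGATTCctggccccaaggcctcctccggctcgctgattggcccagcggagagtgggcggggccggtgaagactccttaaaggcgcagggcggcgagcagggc
Hsph1: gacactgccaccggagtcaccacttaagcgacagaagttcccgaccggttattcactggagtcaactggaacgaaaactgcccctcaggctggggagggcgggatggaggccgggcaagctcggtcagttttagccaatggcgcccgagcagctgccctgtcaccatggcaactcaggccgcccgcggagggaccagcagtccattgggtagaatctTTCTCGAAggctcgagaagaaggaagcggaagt
Zfand2a: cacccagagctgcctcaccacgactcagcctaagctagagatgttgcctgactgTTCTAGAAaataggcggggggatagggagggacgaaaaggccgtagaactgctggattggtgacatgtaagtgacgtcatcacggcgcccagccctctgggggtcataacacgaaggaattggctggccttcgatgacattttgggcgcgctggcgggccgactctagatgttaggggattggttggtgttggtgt
The Hspb1 window holds 2 such cores, the nearest 89 bases before the start, and the others hold 1 each, at 96, 25 and 188 bases. The 2 windows of Dnajb1 hold none. The core occurs in 12.8% of the 32851 windows of the table, both orientations counted, and in at least 1 window of 14.5% of its 27025 genes. Of 19 heat shock list genes in the table, 9 had one. Among the genes higher in IR 4 to IR 6, 95 of 703 matched (13.5%) had one, among those lower 57 of 458 (12.4%), and among all tested 1288 of 10416 (12.4%). A match is a description of letters and not of binding.

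The cytosolic chaperonin CCT, which folds actin and tubulin, and the proteasome, which degrades ubiquitin-tagged proteins, lay on the same side. Of 8 CCT subunits, 5 passed and all 8 lay higher in every low-share library, beside 20.0% of all genes. Cct5 was at 22.1, 26.7 and 28.2 against 70.5, 91.1 and 65.3 (log2 difference 1.53 ± 0.23, SE, adjusted p = 0.0134). Of 31 proteasome subunits, 12 passed as higher and 0 as lower. By levels, 22 lay higher and 1 lower in every low-share library, beside 20.0% and 16.9% of all genes. Psmd13, a subunit of the regulatory particle, was at 6.62, 8.86 and 9.58 against 21.9, 33.7 and 32.9 (1.80 ± 0.26 on the log2 scale, SE, adjusted p = 0.0108). The proteasome calls numbered 0 without IR 1 or IR 2, 1 without IR 3 and 3 without IR 5, and those of CCT 0, 0, 1 and 2. In a fit of all 18 libraries 3 of 8 CCT subunits were called. Actg1, cytoplasmic gamma actin and a client of CCT, was at 28, 58.8 and 19.4 against 139, 157 and 380, and Krt8, a keratin of hepatocytes and bile duct cells, at 190, 278 and 292 against 676, 2033 and 1797. In the list of tubulins and cytoskeleton that holds both, 7 of 21 passed as higher, beside 6.59% of all genes, and 0 as lower. This list had 0 calls without IR 1, IR 2 or IR 3 and 4 without IR 5.

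Early response transcription factors differed unevenly among the low-share libraries. Of 21 AP-1 and related factors tested, 7 passed as higher, beside 6.59% of all genes, and 0 as lower. The median of 2.10 became 0.96 without IR 6. Without IR 1, IR 2 or IR 3 none was called, and without IR 4 or IR 5 the count was 11. Atf3, a stress-induced repressor and activator of the ATF family, was at 30.5, 31.2 and 17.0 against 190, 166 and 973, with 0.812 to 2.75 in sham (4.07 ± 0.73 within IR, SE, adjusted p = 0.0168). Maff, a small Maf factor, was at 6.62, 9.17 and 7.06 against 38.1, 41.7 and 241. Fosb, an AP-1 subunit, was at 0.176, 0.650 and 0.214 against 1.83, 1.70 and 90.8, and its log2 difference went from 6.47 to 2.28 without IR 6. Fos and Jun, the classic AP-1 pair, did not pass (adjusted p = 0.0663 and 0.116). Jun was at 60.8, 85.4 and 36.2 against 139, 40.6 and 670, so IR 5 lay among the high-share libraries and IR 6 alone far above. Otud1, a deubiquitinase outside the list, was at 2.68, 2.94 and 2.19 against 18.5, 22.3 and 164.

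Among early response effectors, 4 of 18 passed as higher, beside 6.59% of all genes, and 0 as lower. The median of 1.60 became 0.62 without IR 6. The count was 0 without IR 1, IR 2 or IR 3, 7 without IR 4 and 8 without IR 5. Gadd45a, a DNA damage and stress sensor, was at 19.6, 15.2 and 8.34 against 99.5, 27.9 and 337, which separates the sets although IR 5 lies near them. Btg2, an antiproliferative gene, did not pass (adjusted p = 0.0618): it was at 13.7, 15.9 and 16.2 against 26.1, 23.4 and 542. The dual-specificity phosphatases, which switch off MAP kinases, had 7 of 9 passing as higher, beside 6.59% of all genes, and 0 as lower. Their median was 2.05. Without IR 1, IR 2 or IR 3 the count was 0, 0 and 1. Dusp5, which acts on nuclear ERK, was at 4.80, 3.57 and 3.31 against 33.7, 20.2 and 29.9 (2.82 ± 0.28 on the log2 scale, SE, adjusted p = 0.00991), and IR 4 held the top value. In sham it was at 0.419 to 1.40.

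**Figure D2:**
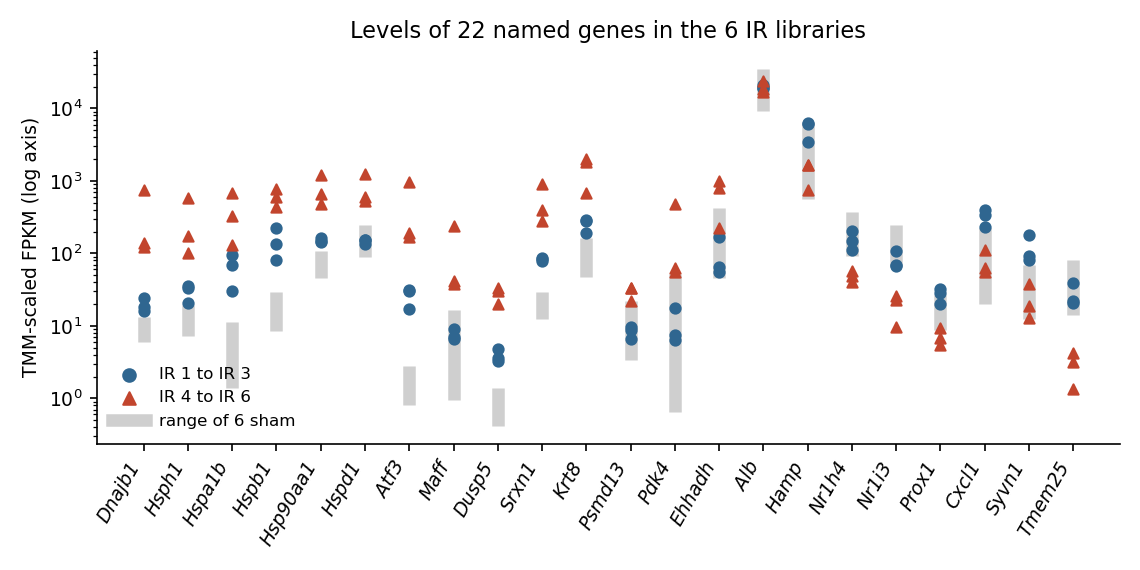
Each point is 1 IR library and the vertical axis is the TMM-scaled FPKM on a log axis, with the range of 6 sham libraries as a grey bar, for 22 genes described in the text. Triangles (IR 4 to IR 6) lie above the circles for the chaperones, Atf3, Maff, Dusp5 and Psmd13, mix with them for Alb, and lie below them for the genes from Hamp onwards.

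Of 19 matricellular and repair genes, 5 passed as higher, beside 6.59% of all genes, and 0 as lower. The count was 0 without IR 1, IR 2 or IR 3, and 2 of 17 tested in a fit of all 18 libraries. Among the 5 were 3 ligands of the EGF receptor. Hbegf was at 0.289, 0.634 and 0.363 against 1.87, 1.78 and 23.8, Areg at 0.575, 1.23 and 0.550 against 6.49, 2.15 and 11.4, and Ereg at 0.339, 0.311 and 0.405 against 0.874, 1.65 and 1.23. Areg and Ereg are low-level transcripts in these livers. With 7, 21 and 8 counts in the high-share libraries, Areg passed the filter on low counts through the low-share set. It is counted among the 5, but its difference is not read as a result. Of 22 targets of NRF2, the factor of the oxidative stress response, 5 passed as higher, beside 6.59% of all genes, and 0 as lower. By levels, 9 lay higher and 1 lower in every low-share library, beside 20.0% and 16.9% of all genes. Srxn1, which repairs oxidised peroxiredoxins, was at 77.4, 83.6 and 87.1 against 396, 898 and 277, and here IR 5 and not IR 6 held the top value. Hmox1, heme oxygenase, was at 38.8, 32.5 and 102 against 189, 507 and 114, so that IR 3 came close to IR 6 (adjusted p = 0.0478). Without IR 5 the count was 1 of 22, and without IR 1, IR 2 or IR 3 it was 0.

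Of 22 genes of fatty acid oxidation and ketogenesis, 9 passed as higher, beside 6.59% of all genes, and 0 as lower (median 1.10). The count was 0 without IR 1 or IR 2, 2 without IR 3, 4 without IR 5 and 3 in a fit of all 18 libraries. Pdk4, the kinase that shuts pyruvate out of the citric acid cycle, was at 6.31, 7.41 and 17.7 against 63.4, 54.7 and 487. Ehhadh, a peroxisomal oxidation enzyme, was at 55.5, 64.5 and 168 against 226, 789 and 997, with 45.8 to 420 in sham, so IR 4 lies inside the sham range. Plin2, the coat of lipid droplets, was at 165, 231 and 326 against 725, 804 and 923. Cpt1a and Ppara, the entry enzyme and the governing receptor of this pathway, had log2 differences of 0.23 and -0.20 that did not pass. Of 23 genes of hypoxia and glycolysis, 8 passed as higher, beside 6.59% of all genes, and 0 as lower. That count was 0 without IR 1 or IR 2, 2 without IR 3, 4 without IR 5 and 2 in a fit of all 18 libraries. Ndrg1, induced by low oxygen, was at 2.38, 2.70 and 2.29 against 8.21, 10.5 and 11.1 (1.99 ± 0.22 on the log2 scale, SE, adjusted p = 0.00991), and Pgk1, a glycolytic enzyme, at 30.9, 39.4 and 47.5 against 104, 146 and 161.

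Of 16 secreted hepatocyte products, 0 passed in either direction (edgeR; 3 at an unadjusted p under 0.05, DESeq2 1 higher and 1 lower). By levels, 5 of them lay higher and 1 lower in every low-share library, beside 20.0% and 16.9% of all genes. Alb, albumin, was at 19060, 20860 and 19440 against 18490, 16660 and 24220. Of 13 tested genes of gluconeogenesis and glycogen, 1 passed as higher, beside 6.59% of all genes. Of 25 cytochrome P450 and conjugation genes, 1 passed, Ugt1a1 (3.37, 6.02 and 8.57 against 16.1, 29.5 and 59.5), which shares exons with other Ugt1a genes. Cyp7a1, the rate-limiting enzyme of bile acid synthesis, was at 5.79, 3.58 and 7.11 against 2.21, 4.10 and 6.58, which overlap, and at 16.4 to 91.9 in sham.

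Some regulators of the hepatocyte were lower. Of 16 nuclear receptors and hepatocyte transcription factors, 4 passed as lower, beside 4.69% of all genes, and 0 as higher. The count called lower was 0 without IR 1 or IR 2 and 1 without IR 3. By levels, 6 lay lower and 0 higher in every low-share library, beside 16.9% and 20.0% of all genes. Of the 16, 6 had a difference above 0. Nr1i3, the xenobiotic receptor CAR, was at 69.2, 66.7 and 110 against 26.2, 9.55 and 22.6 (-2.10 ± 0.40 on the log2 scale, SE, adjusted p = 0.0192), with 67.9 to 246 in sham, so the low-share libraries lay well below the sham range and IR 2 just below it. Prox1, a homeobox factor of hepatocytes, was at 19.8, 28.3 and 31.8 against 9.46, 5.39 and 6.82. Onecut1, another hepatocyte factor, was at 1.12, 1.54 and 2.89 against 0.693, 0.581 and 0.313. Nr1h5, an FXR-related receptor, was at 2.60, 1.33 and 1.45 against 0.368, 0.128 and 0.272, with 4.34 to 11.3 in sham. With 5 to 11 counts in the low-share libraries, Nr1h5 passed the filter on low counts through the high-share set. It is counted among the 4, but its difference is not read as a result. Nr1h4, the bile acid receptor FXR (chromosome 10, 89290096 to 89369447, minus strand, GRCm39), was at 204, 112 and 150 against 57.1, 40.4 and 49.4. Baat and Hsd3b7, enzymes of bile acid conjugation and synthesis, passed as lower too, and Cyp8b1, which sets the ratio of bile acids, as higher (18.9, 16.9 and 24.4 against 32.3, 69.2 and 148).

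Of 25 acute phase genes, 2 passed as lower and 0 as higher. By levels, 10 lay lower and 1 higher in every low-share library, beside 16.9% and 20.0% of all genes. The count of genes called lower was 0 without IR 1, IR 2 or IR 3, 7 without IR 4, 1 without IR 5 and 0 in a fit of all 18 libraries. Hamp, the iron hormone hepcidin, was at 3448, 6163 and 6282 against 1681, 748 and 1649, and the 3 low-share values lie inside the sham range of 557 to 6322. Itih3, a hyaluronan-binding inhibitor chain, was at 1550, 1322 and 1050 against 488, 234 and 650. Cxcl1, a chemokine that attracts neutrophils (chromosome 5, 91039100 to 91040974, plus strand, GRCm39), was at 399, 228 and 338 against 111, 54.9 and 62.7 (-2.11 ± 0.35 on the log2 scale, SE, adjusted p = 0.0157). Cxcl10, an interferon-induced chemokine, passed the other way, at 3.15, 2.69 and 3.86 against 9.83, 5.05 and 8.57. These were the 2 of 18 chemokine genes that passed.

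Calls among genes of the endoplasmic reticulum were split. Of 20, 3 passed as higher and 3 as lower (DESeq2 3 and 5). The median difference was -0.40. By levels, 4 lay higher and 9 lower in every low-share library, beside 20.0% and 16.9% of all genes. Hspa5 and Dnajb9, chaperones of the lumen, were higher, with Hspa5 at 328, 414 and 342 against 787, 870 and 1421. Syvn1, the ubiquitin ligase of ER-associated degradation, was at 93.5, 180 and 80.2 against 38.0, 18.8 and 12.8 (-2.38 ± 0.47 on the log2 scale, SE, adjusted p = 0.0201), and Sdf2l1 and Creld2 were lower as well. Derl3, a channel component of the same degradation route outside the list, was at 5.76, 11.6 and 1.22 against 0.810, 0.727 and 0.603, with IR 2 far above the others.

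The lower genes with the largest differences by the naming rule included several noncoding and overlapping ones. A U6 small nuclear RNA gene (chromosome 17, 87010726 to 87010835, minus strand, GRCm39) had 21, 41 and 21 counts in IR 1 to IR 3 and 0 counts in each of IR 4 to IR 6, and 8.16 to 26.8 TMM-scaled FPKM in sham. It passed the filter on low counts through the high-share set alone, so its difference is not read as a result. It is short and has many near-identical copies, and no source used here says how shared reads were treated. Gtpbp4-ps1, a pseudogene, was at 132, 159 and 125 against 28.2, 12.2 and 7.58, and Tmem25, a membrane protein gene that overlaps a predicted gene, at 38.4, 20.5 and 21.7 against 3.16, 1.33 and 4.25. Tmem25 was at 14.3 to 79.8 in sham and 15.3 to 71.7 in IR-Ori, so the low-share libraries lie below all 15 others. Gtpbp4-ps1 in the high-share libraries lay above the sham range of 20.1 to 85.8. BC049987 and Olfr1034 also belong to the 10, with log2 differences of -4.14 and -3.58. Another 3 of the 10, like the U6 gene, passed the filter through the high-share set, so their differences are not read as results. Mir290a had 8, 35 and 27 counts against 1, 3 and 5, Ccdc142os 21, 53 and 23 against 1, 7 and 5, and Fcamr 24, 45 and 16 against 3, 7 and 3.

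Some markers of other liver cells were called too, beside 6.59% of all genes higher and 4.69% lower. Of Kupffer cell markers 0 of 12 passed (edgeR; 4 at an unadjusted p under 0.05, DESeq2 1 higher and 0 lower), of monocyte markers 1 of 12, of neutrophil markers 2 of 13 as higher and 1 as lower, of endothelial markers 3 of 14 as higher, of erythroid and platelet markers 2 of 8 as higher and of stellate and fibroblast markers 1 of 13 as lower. Without IR 1 or IR 2 neither endothelial nor erythroid markers were called. The summed level of neutrophil markers ranged from 544 to 1450 over the low-share libraries, from 1031 to 1112 over the high-share ones and from 419 to 975 over sham. For Kupffer cell markers it was 91.7 to 104 (high share) against 107 to 176 (low share), for endothelial markers 60.7 to 71.4 against 60.5 to 93.6, and for cholangiocyte markers 53.3 to 69.4 against 71.4 to 117. The sham ranges were 87.0 to 175 for Kupffer cell markers, 30.3 to 91.3 for endothelial markers and 30.5 to 86.5 for cholangiocyte markers. Of cholangiocyte markers 0 of 9 passed (edgeR; 2 at an unadjusted p under 0.05, DESeq2 1 higher and 0 lower). Hemoglobin and platelet markers summed to 169 to 171 against 274 to 428, and Hbb-bs, a beta globin of red cells, was at 59.4, 78.2 and 78.3 against 260, 162 and 206 (sums of 37.6 to 365 in sham). The sums of Kupffer cell, cholangiocyte, and erythroid and platelet markers thus did not overlap between the sets, and those of neutrophil and endothelial markers did. By single genes, 4 of 12 Kupffer cell, 1 of 9 cholangiocyte and 5 of 8 erythroid and platelet markers lay higher in every low-share library. On these lists 0 lay lower, beside 20.0% of all genes higher and 16.9% lower. No marker on these lists was at 0 in all 6 libraries. The part of residual blood or of other cells in the differences above was not tested, and in bulk RNA a change in the number of cells of a type cannot be told apart from a change in RNA per cell.

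**Figure D3:**
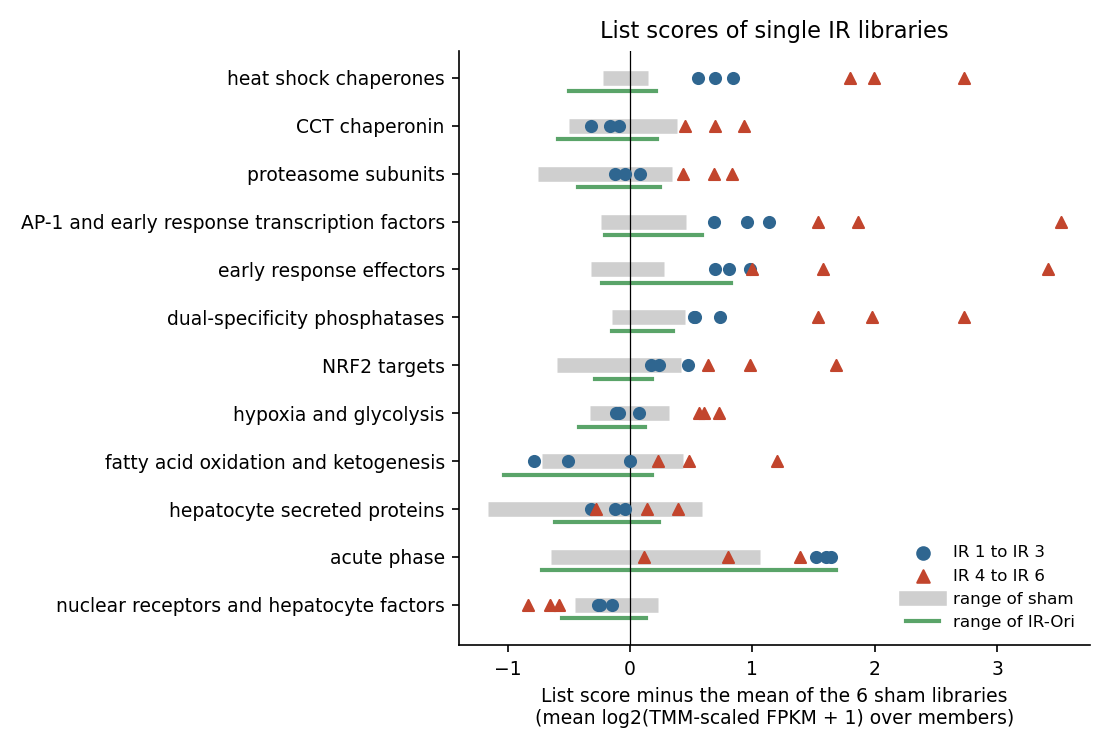
The horizontal axis is the score of a list, the mean log2(TMM-scaled FPKM + 1) of its members, minus the mean of 6 sham libraries. Circles are IR 1 to IR 3, triangles IR 4 to IR 6, the grey bar the range of sham and the green line that of IR-Ori. For heat shock chaperones the circles (scores of 5.19, 5.05 and 4.91) already lie beyond the sham range of 4.13 to 4.50 and the triangles (6.35, 6.15 and 7.08) lie farther. For the proteasome the circles lie inside the sham range.

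Whether such differences follow the share elsewhere was asked in the 12 sham and IR-Ori libraries, which the split did not use. There, 5843 of 14639 genes (39.9%) had a slope on the share with an adjusted p under 0.05 (edgeR, group as a covariate): 2795 (19.1%) were higher and 3048 (20.8%) lower at a larger share. Of the 1591 genes called within IR and tested in both, 963 (60.5%) had a called slope in the matching orientation, 18 (1.13%) a called slope the other way and 610 none. The 963 are 16.9% of the 5715 genes with a called slope. These slopes rest mostly on sham, where 5018 genes passed alone, while in IR-Ori alone 0 passed (2775 at an unadjusted p under 0.05), and without sham 2, the library at 42.8%, 3661 passed.

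In that joint fit 17 of 31 proteasome subunits had a slope that was lower at a larger share and 14 had none called, beside 20.8% of all genes called lower. Among IR-Ori libraries a low share is held by IR-Ori 5 alone. Psmd13 was at 22.3, 20.4 and 17.2 in the 3 sham libraries under 15% and at 3.34, 5.12 and 5.99 in the other 3, and IR-Ori 5, the one low library of its group, was at 15.8 against 5.43 to 7.52. Its slope was -0.89 ± 0.07 on the log2 scale per 10 percentage points (SE, n = 12 libraries, edgeR adjusted p = 1.42e-05). CCT subunits (6 of 8), the nuclear genes of respiratory complexes II to V (22 of 32), fatty acid oxidation (10 of 22) and secreted hepatocyte products (13 of 16) also had slopes called lower at a larger share. In the cytosolic ribosome 31 of 75 were called lower and 4 higher, with Rpl4 at a slope of -0.91. Of the respiratory complexes II to V, 6 of 32 were called higher within IR and 0 lower, beside 6.59% and 4.69% of all genes. By levels, 10 lay higher and 4 lower in every low-share library, beside 20.0% and 16.9% of all genes. Atp5b, the catalytic subunit of ATP synthase, was among the 6 (61.9, 70.7 and 99.5 against 190, 219 and 239). Of 37 nuclear genes of complex I, 1 was called higher and 1 lower, and by levels 6 lay higher and 8 lower.

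Of 24 heat shock chaperones, 5 were called lower and 2 higher at a larger share outside IR, beside 20.8% and 19.1% of all genes, so the share called lower is that of all genes. At an unadjusted p under 0.05 (edgeR), 10 of 24 had a slope in either direction, beside 7132 of all 14639 genes. For the AP-1 list the calls at an adjusted p under 0.05 were 1 lower and 0 higher of 19. For early response effectors they were 0 of 18 either way (edgeR, 2 at an unadjusted p under 0.05), and for the phosphatases 0 lower and 1 higher of 9. Dnajb1 was at 6.59, 9.65 and 9.86 in the sham libraries under 15% and at 12.0, 13.1 and 5.94 in the others, with a slope of 0.09 ± 0.15 (SE, n = 12 libraries, edgeR adjusted p = 0.671). Dusp5 was at 1.40, 0.419 and 0.605 against 0.975, 0.558 and 0.658 in the same libraries. Within IR the slope of Dnajb1 was -1.21 ± 0.29. The difference of these slopes, -1.30 ± 0.37, did not pass over all genes (adjusted p = 0.112), and it passed without IR 1 (adjusted p = 0.0016).

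**Figure D4:**
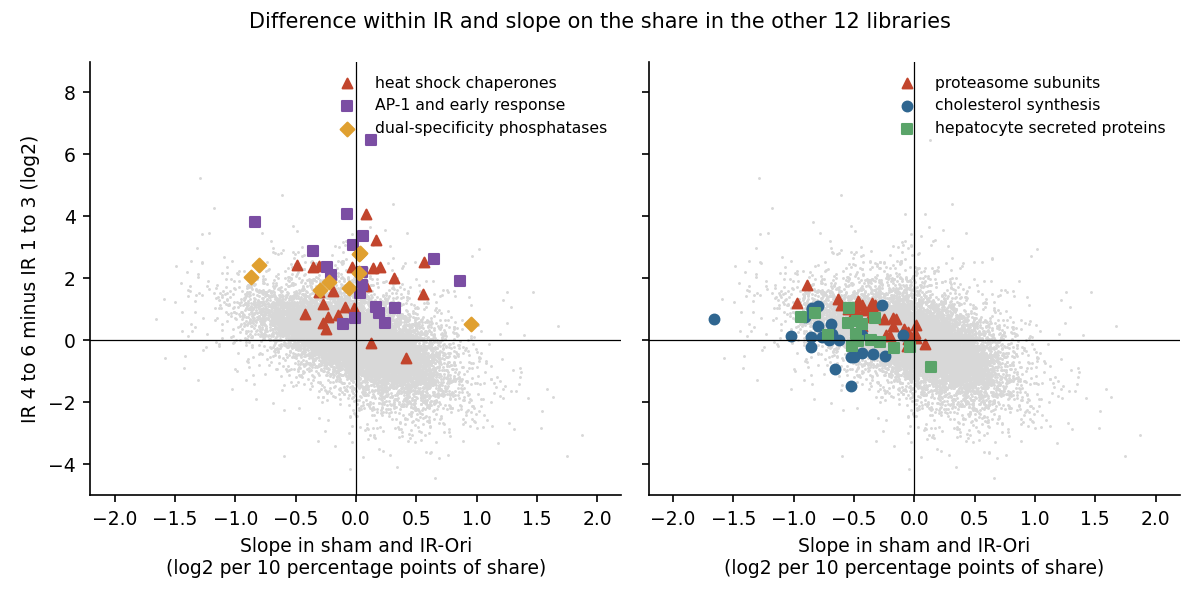
Each grey point is a nuclear gene, with its slope on the share in 12 sham and IR-Ori libraries on the horizontal axis (log2 per 10 percentage points) and the log2 difference of IR 4 to IR 6 minus IR 1 to IR 3 on the vertical axis. Coloured points are list members: heat shock, AP-1 and phosphatase genes lie high around a slope of 0, proteasome subunits lie to the upper left, and cholesterol synthesis genes to the left around a difference of 0.

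The slope within IR differed from the slope in sham and IR-Ori for 15 of 14639 genes (0.102%), and for 533 (3.64%) without IR 1, the library with the extreme share. Of heat shock chaperones 0 of 24 were among the 15 and 11 of 24 among the 533, of the AP-1 list 0 and 6 of 19. Of the 24 genes of cholesterol synthesis, 5 were among the 15 and 3 among the 533. Of the list, 21 of 24 were lower at a larger share in sham and IR-Ori (median slope -0.69), whereas within IR 0 of 24 passed in either direction (edgeR, median difference 0.13; 6 at an unadjusted p under 0.05, DESeq2 2 higher and 1 lower). Sc5d, a late enzyme of the pathway (chromosome 9, 42162891 to 42175552, minus strand, GRCm39), was at 131, 105 and 150 in the sham libraries under 15%, at 23.4, 43.0 and 46.8 in the other sham libraries, and at 46.5, 29.8 and 44.4 against 39.6, 26.2 and 40.1 in IR. The IR libraries of either set thus lay near the sham libraries of high share. Its slope was 0.11 ± 0.09 in IR and -0.86 ± 0.08 elsewhere (SE), a difference of 0.97 ± 0.12 (adjusted p = 0.00286). Cyp51, Ebp, Nsdhl and Idi1 were the other 4 of the list. Of the 15 genes, Slc22a4, a carnitine-family transporter, Srsf7, a splicing factor, and Arhgap17 differed in the other direction. Slc22a4 was at 2.03, 2.32 and 2.29 against 5.17, 13.1 and 7.42 within IR, with a slope of 0.58 elsewhere.

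**Figure D5:**
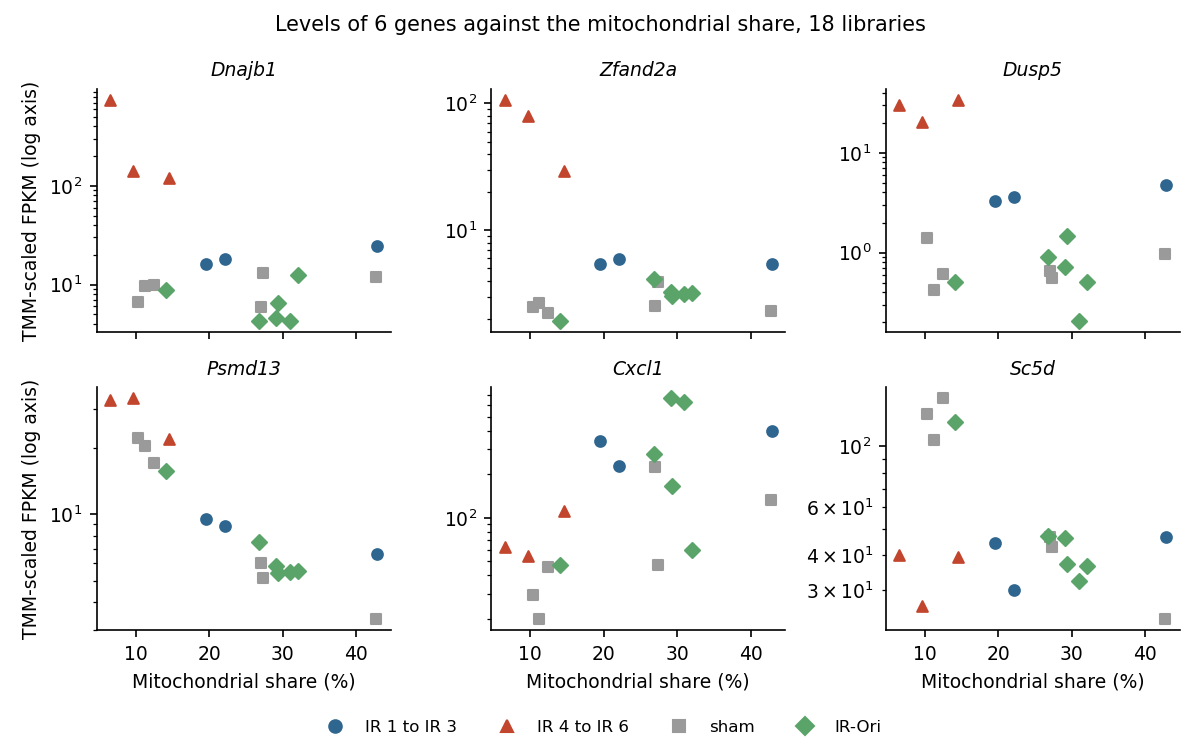
The mitochondrial share of each of the 18 libraries is on the horizontal axis and the TMM-scaled FPKM of 6 genes on a log vertical axis. Psmd13 is high in the libraries under 15% of every group, Dnajb1, Zfand2a and Dusp5 are high in IR 4 to IR 6 and not in the sham libraries of similar share, and Sc5d is high in sham and IR-Ori libraries under 15% and not in IR 4 to IR 6.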

How the data were processed

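Messenger RNA of 18 mouse liver libraries was sequenced. The deposited table gives read counts per gene and FPKM made by the authors. Per the submitters' processing notes cutadapt 1.9.1, HISAT2 2.2.1, DESeq2 and the GRCm39 genome were used, while no source used here gives the counting tool or strand setting. The deposited FPKM were recomputed from counts, exonic size and total counts to within 0.0051 for 100.0% of values, so their totals include mitochondrial counts.

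Of 56691 genes, the 56654 nuclear ones were analysed with edgeR 4.0.16 in R 4.3.3 (quasi-likelihood test, TMM, filterByExpr with a minimum count of 10 and a total of 15, Benjamini-Hochberg, threshold 0.05). Fits were the low-share against the high-share IR libraries, the slope per 10 percentage points of share in sham and IR-Ori with group as covariate, and the difference of slopes over 18 libraries. DESeq2 1.42.0 and limma 3.58.1 on log2(FPKM + 1) were alternatives, with other scalings, no filter, the share as a number and each library left out. Scripts were tested on simulated data with a smaller spread between libraries than these data have. That test therefore does not show how often calls are missed or false here.

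The members and gene lists were chosen with earlier results of these data known. Named genes were the 10 largest called differences each way (mean TMM-scaled FPKM of at least 1 in the higher set, no overlap, no clone or predicted names), up to 4 of smallest p per list, and a set of stress and control genes. A few further list members are named with their values seen.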

Additional observations from a re-analysis of the deposited data

Results flagged for a closer look

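Some libraries stood far from the other 5 of their group by the gap to the nearest library over the range of the group. This was asked of 147 groups of 6 values, and chance gives about 1 in 20; 18 passed. A score is the mean log2(TMM-scaled FPKM + 1) of a list. IR-Ori 5 had a mitochondrial share of 14.1%, against 26.8 to 32% in its group. In IR 6 the score of early response effectors was 6.93, against 4.21 to 5.09. In sham 1 the score of dual-specificity phosphatases was 1.93, against 1.33 to 1.43. In IR 6 the score of p53 targets was 3.92, against 2.36 to 2.92. In IR-Ori 3 the score of CXC and CC chemokines was 1.87, against 1.44 to 1.59. In IR-Ori 3 the score of interferon-stimulated was 3.38, against 2.51 to 2.74. In IR 6 the score of Kupffer cell markers was 3.53, against 2.48 to 2.83. In IR 1 the score of B cell markers was 1.13, against 0.266 to 0.565. In IR-Ori 3 the score of stellate and fibroblast markers was 1.58, against 1.76 to 1.82. In IR-Ori 5 the score of cholesterol synthesis was 4.88, against 3.09 to 3.6. In sham 1 the score of nuclear receptors and hepatocyte factors was 3.98, against 4.41 to 4.65. In sham 2 the score of circadian clock was 3.38, against 3.15 to 3.23. In sham 2 the score of respiratory complex I nuclear was 5.12, against 5.8 to 6.18. In IR-Ori 5 the score of respiratory complex I nuclear was 5.92, against 5.5 to 5.64. In IR-Ori 5 the score of respiratory complexes II to V nuclear was 7.09, against 6.09 to 6.46. In IR 5 the score of mitochondrial genome expression factors was 3.01, against 2.82 to 2.89. In IR-Ori 5 the score of mitochondrial ribosomal proteins was 3.91, against 3.49 to 3.61. In IR 4 the score of cytosolic ribosomal proteins was 7.36, against 6.9 to 7.03.

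For 15 genes the slope on the mitochondrial share differed between IR and the other 12 libraries (edgeR interaction term). The differences, in log2 per 10 percentage points, were Cyp51 1.11 (adjusted p = 0.0298), Gstm7 0.858 (adjusted p = 0.0105), Fads1 0.817 (adjusted p = 0.0454), Slc22a4 -1.26 (adjusted p = 0.046), Erg28 0.961 (adjusted p = 0.00286), Srsf7 -0.579 (adjusted p = 0.046), Arhgap17 -0.644 (adjusted p = 0.046), Ebp 0.626 (adjusted p = 0.0484), Nsdhl 1.21 (adjusted p = 0.0389), Sc5d 0.967 (adjusted p = 0.00286), Stt3a 0.544 (adjusted p = 0.0454), Tmem97 0.715 (adjusted p = 0.0471), Idi1 1.46 (adjusted p = 0.046), Rdh11 1.13 (adjusted p = 0.00286), Ugt1a5 1.51 (adjusted p = 0.0428). Without IR 1 the count was 533.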

How the results depend on the processing

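The 1607 calls between the IR sets moved to 2695 with DESeq2, 2896 without the filter on low counts, 1048 with limma on the deposited FPKM, 1024 with limma on FPKM over nuclear counts, 8 with the continuous share and 671 without IR 3 and IR 4, which was chosen after seeing the data. Leaving out 1 library gave 0 to 1927. The share of calls that were higher in IR 4 to IR 6 was 58.4%, against 71.9% with the deposited FPKM, 43.0% with nuclear FPKM and 46.5% with scaling by nuclear totals, which shifted the median of all genes to -0.11. The 5843 slopes in sham and IR-Ori became 2958 with a replicate block and 0 in IR-Ori alone (lowest adjusted p 0.0952), and 3661 to 6063 with 1 library left out. The 15 differences of slope became 458 with DESeq2, 56 without the filter, 197 with the logit of the share, 0 against sham alone (1756 at an unadjusted p under 0.05) and 39 with a replicate block, chosen after seeing the data, and 5 to 533 with 1 library left out. The causes were not tested. Of 18 same-number pairs of libraries, 6 correlated over 0.1 (-0.44 to 0.42) and 5 libraries correlated best with their own number. All 5 were among the 6 of IR against IR-Ori, where r was 0.0141 to 0.419 and 4 of 6 pairs were over 0.1, a hint from the data and not the design; against sham none did. No paired analysis was possible within IR because its 2 sets share no replicate number. The sets are IR 1 to IR 3 and IR 4 to IR 6, so anything that goes with the number cannot be told apart from the share. Of the 223 named genes, 129 were called within IR, and none of these 129 changed sign under a setting run; the other called genes were not checked for this. Of the named genes not called, these changed sign, as log2 differences: with scaling by nuclear totals Ccl5 -0.070, Malat1 -0.029, Ebp -0.089; with limma on nuclear FPKM Ccl5 -0.038, Malat1 -0.18, Cyp51 -0.030, Ebp -0.16; with the continuous share Ccl5 -0.12, Ier3 -0.061, Alb 0.023, Cyp51 -0.098, Ebp -0.014, Ugt1a5 -0.090; without IR 3 and IR 4 Ier3 -0.20, Alb 0.027, Cyp7a1 0.18, Cyp51 -0.22, Ebp -0.22; with limma on deposited FPKM Alb 0.16, Erg28 0.042, Rdh11 0.11; with all 18 libraries Alb 0.00067. Leaving out 1 IR library at a time gave, for those that changed sign, Ighd -1.42 to 0.56, Ighm -0.75 to 0.36, Il2rb -0.044 to 0.75, Ccl5 -0.23 to 0.28, Nr1d1 -0.22 to 2.10, Alb -0.20 to 0.088, Malat1 -0.61 to 0.57, Cyp51 -0.23 to 0.44, Erg28 -0.26 to 0.0016, Ebp -0.31 to 0.16, Rdh11 -0.24 to 0.097.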
